A study of Mus musculus with 12 samples.

Results

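The SLC25 family holds the carriers that move metabolites across the inner mitochondrial membrane. Its members here were all genes to which the array's annotation gives a symbol made of Slc25a and a number. They came to 44 genes with 93 probe sets, out of 18193 genes and 45101 probe sets in all, and each gene was read from its brightest probe set, by the mean of 12 arrays. Of the 44 carriers, 38 were bright enough to test, against 12654 genes in the whole table. Other probe sets are given beside carriers whose call or steadiness depends on them, and 1 probe set that names Slc25a37 together with another gene was left out.

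The RNA came from mice of 4 groups with 3 arrays each: wild type (WT) and a knockout of both Stat5 genes, Stat5a and Stat5b (KO), either untreated or given growth hormone (GH). STAT5A and STAT5B are transcription factors that the GH receptor activates. The series title names skeletal muscle, whereas the treatment label speaks of a deletion in blood cells, and neither names a Cre driver. Strain, age, sex, GH dose and duration of treatment are not given in the sources used here. Titles give each array its own number, taken here to be that of an animal, and replicates are numbered here in the order of deposit. The numbers of GH arrays begin with the letter M and those of untreated arrays do not. P-values set differences between groups against the spread of arrays within groups. They do not cover a difference between GH and untreated arrays that is not due to GH.

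Carriers of this family share a fold of 3 repeats in the membrane and differ in what they exchange: adenine nucleotides and phosphate for oxidative phosphorylation, di- and tricarboxylates for the tricarboxylic acid cycle and lipid synthesis, amino acids, acylcarnitines, cofactors and iron. Skeletal muscle is rich in the ADP/ATP and phosphate carriers. Slc25a25 belongs to the ATP-Mg/phosphate carriers, which change the amount of adenine nucleotide inside the mitochondrion, and itself binds calcium on the cytosolic side. It is known as a gene that responds quickly to hormones and to cAMP.

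Slc25a25 passed the test in all 4 comparisons of 2 groups given below, so the bases before its annotated starts are shown. RefSeq's table for GRCm38.p6 lists 3 starts for the gene, all on the minus strand, and 34 of the 44 carriers have an entry there. The 250 bases before each start lie at chr2:32451471-32451720, chr2:32431152-32431401 and chr2:32424067-32424316. Capitals mark matches to the cAMP response element TGACGTCA and to its core TGACG.

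Slc25a25 start 1: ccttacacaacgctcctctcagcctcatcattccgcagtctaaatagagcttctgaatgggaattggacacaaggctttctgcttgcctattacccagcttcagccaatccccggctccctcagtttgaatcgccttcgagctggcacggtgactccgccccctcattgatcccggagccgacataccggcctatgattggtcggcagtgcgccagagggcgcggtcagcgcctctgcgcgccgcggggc
Slc25a25 start 2: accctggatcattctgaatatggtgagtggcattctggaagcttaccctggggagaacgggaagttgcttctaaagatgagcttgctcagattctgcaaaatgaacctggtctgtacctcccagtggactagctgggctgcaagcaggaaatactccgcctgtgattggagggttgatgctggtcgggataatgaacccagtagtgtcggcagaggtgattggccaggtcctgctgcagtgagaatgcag
Slc25a25 start 3: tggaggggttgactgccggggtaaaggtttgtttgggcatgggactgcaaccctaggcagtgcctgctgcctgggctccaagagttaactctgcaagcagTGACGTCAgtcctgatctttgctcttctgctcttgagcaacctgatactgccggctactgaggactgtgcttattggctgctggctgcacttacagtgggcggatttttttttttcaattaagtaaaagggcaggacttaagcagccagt

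The third window held TGACGTCA at position -150 from the start, and neither of the other two held it. The element was found in 1.55% of the 32851 windows of this length in the table, and in 2 of the 43 windows of SLC25 carriers, those of Slc25a25 and Slc25a36. The core TGACG, which overlaps it, was in 17.8% of all windows and in 11 of the 43. The STAT motif TTCNNNGAA was in 7.02% of all windows and in 2 of the 43, belonging to Slc25a36 and Slc25a54, and its letters are not in the 3 windows of Slc25a25. Among the carriers, the E-box CACGTG was in 8 of 43 windows (6.02% of all), the glucocorticoid element arm AGAACA in 3 (16.1% of all) and the sterol element TCACNCCAC in 1 (1.05% of all). Both strands were searched, and a match is a description of letters. Which start the arrays' transcripts used was not analysed here.

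Values are MAS5 signal, an intensity in arbitrary units on a linear scale, and the authors' scaling gave every array the same trimmed mean of 500. Skeletal muscle markers were at the top of the range on all arrays (summed signal of 11 genes 408000 to 604000, median percentile 100), while red cell, lymphocyte, neutrophil and hepatocyte lists had median percentiles of 17.9, 27.2, 31.2 and 30.5. Adipocyte, brown adipocyte and macrophage lists also stood high, at 92.2, 92 and 78.2, so the samples held RNA of more than muscle fibres. Stat5b signal was 2640 to 2960 in WT and 372 to 497 in KO, and with GH 1690 to 1900 and 333 to 378. Stat5a was 561 to 730 in WT and 170 to 361 in KO, and with GH 384 to 436 and 129 to 196. For both genes KO arrays lay below WT arrays without GH and with it. Arrays with GH differed in controls as well: 12 probe sets for added poly-A RNA averaged (geometric mean) 151 to 173 on untreated arrays and 487 to 533 on GH arrays, and the beta actin 3 prime over 5 prime ratio ranged from 0.805 to 0.864 on the former and from 0.887 to 1.01 on the latter. GH and this technical difference cannot be told apart. With GH the actin ratio was also higher in KO (0.962 to 1.01) than in WT (0.887 to 0.932). Its ranges therefore did not overlap between arrays with and without GH, or between the genotypes with GH. A fit with this ratio as a covariate has little left to separate such groups. A call lost in that fit therefore does not tell the ratio's part from that of GH or genotype.

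Slc25a25 was raised by the knockout without GH and lowered by it with GH, and GH moved it in opposite directions in the 2 genotypes. Its signal was 1684, 1523 and 1493 on the 3 WT arrays and 3156, 3215 and 2583 on the KO arrays. With GH it was 5871, 5246 and 5472 in WT and 1940, 1704 and 1963 in KO. The WT arrays with GH stood highest, the KO arrays without GH came next, and these groups overlapped with no other. KO with GH lay just above WT without GH, from 1704 against a WT maximum of 1684.

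Tested with limma, with p adjusted by Benjamini-Hochberg over all 12654 genes, Slc25a25 rose by 0.91 ± 0.0961 (log2 fold change ± SE, 1.88-fold, adjusted p = 0.000105) in KO without GH. With GH it fell by 1.55 ± 0.0961 in KO relative to WT (2.93-fold lower, adjusted p = 1.07e-07). GH raised it by 1.80 ± 0.0961 in WT (3.49-fold, adjusted p = 1.95e-08) and lowered it in KO, where it fell by 0.66 ± 0.0961 (adjusted p = 0.00019). The interaction of genotype and GH, the GH effect in KO minus that in WT, was -2.47 ± 0.136 on the log2 scale (adjusted p = 9.07e-08). By p it had rank 2 among the 12654 genes, of which 0.933% were called for the interaction. The mean genotype effect, taken over untreated and GH-treated mice, was -0.32 ± 0.0679 (adjusted p = 0.00979) and joins a rise with a fall.

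Slc25a25 has 2 further probe sets, both dim. Their group means were 64 to 169 and 31.6 to 108, against 1566 to 5529 for the bright one. The first gave log2 fold changes of 0.41 and 0.26 for KO against WT without and with GH and of 0.97 and 0.81 for GH in WT and KO. The second gave 1.19 and -0.34, and 1.29 and -0.24. Without any 1 of the 12 arrays Slc25a25 kept its call in all 6 comparisons. Averaging its 3 probe sets, the genotype calls were lost (0.84 with adjusted p = 0.0564 without GH, and -0.54 with adjusted p = 0.156 with GH), as was GH in KO (-0.03, adjusted p = 0.93). With the actin ratio as a covariate GH in KO was -0.50 (adjusted p = 0.447).

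Slow fibre markers were called in 2 of the 4 comparisons in which Slc25a25 was. Of 7 markers 6 rose in KO without GH (beside 0.774% of all genes) and 6 rose with GH in WT (beside 7.33%). Between the genotypes with GH 0 of 7 passed limma's threshold (median log2 fold change 0.44, 1 of 7 at an unadjusted p below 0.05). For GH in KO 0 of 7 passed it (median -0.24, 0 of 7 unadjusted). For the interaction 1 of 7 was called, as for Slc25a25 with a negative sign: Atp2a2 at -1.05 ± 0.175 (limma, adjusted p = 0.00629). The list's median there was -1.95, and 0.308% of all genes were called lower. For the mean genotype effect 5 of 7 rose (beside 2.88% of all genes), where Slc25a25 fell. The summed signal of the markers was 11700 to 32900 in WT, 38600 to 48300 in KO, 30500 to 32400 in WT with GH and 36000 to 37000 in KO with GH. The part of fibre type in the Slc25a25 values was not tested. In bulk muscle, fewer cells of a type and less RNA per cell cannot be told apart.

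**Figure D1:**
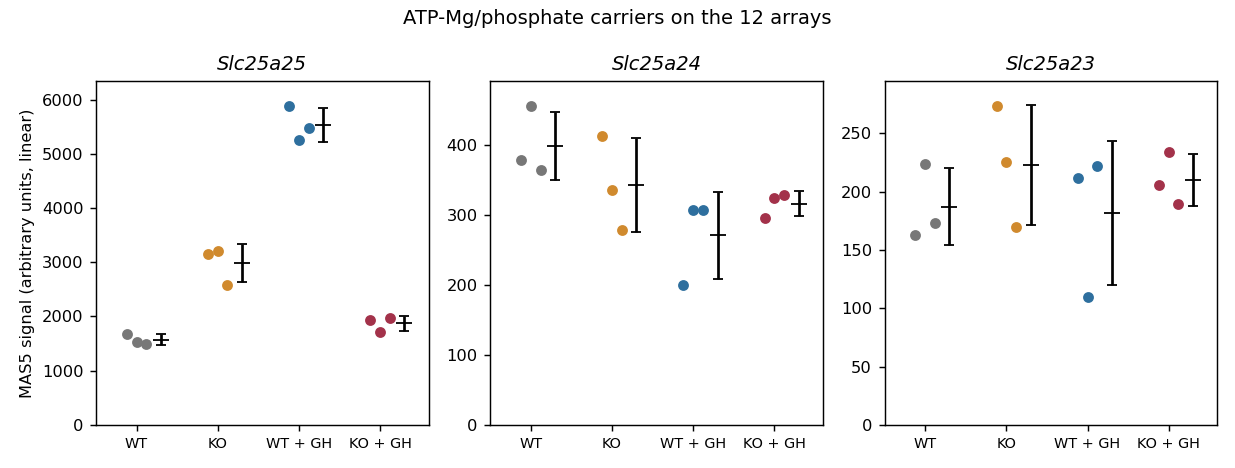
MAS5 signal (linear, arbitrary units, vertical axis from 0, a scale of its own per panel) of the 3 tested ATP-Mg/phosphate carriers in the 4 groups. Dots are arrays, and bars beside them are mean and SD (n = 3). Slc25a25 has a mean of 5529 in WT with GH against 1566, 2985 and 1869 in the other groups, whereas the groups of Slc25a23 overlap.

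The closest relatives of Slc25a25, which carry the same substrates, had other values. Slc25a24 had a signal of 379, 455 and 364 in WT, 413, 336 and 279 in KO, 200, 307 and 307 in WT with GH, and 296, 324 and 328 in KO with GH. It fell with GH in WT by 0.53 ± 0.172 on the log2 scale (adjusted p = 0.0406), where the WT groups did not overlap. That call ended without WT 1, WT 2, WT 3, KO 2, WT_GH 1 or any 1 of the KO_GH arrays (adjusted p = 0.0511 to 0.165) and with the actin covariate (-0.36, adjusted p = 0.537). Its other probe set gave -0.36. In the other comparisons of 2 groups Slc25a24 had log2 fold changes of -0.22 to 0.22 and no call. Slc25a23 was 110 to 273 on the 12 arrays, with log2 fold changes of -0.07 to 0.23 and no call. Slc25a41, the fourth carrier of the class, had a signal of 2.8 to 34.4 and was too dim to test.

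The difference between the change of Slc25a25 and that of each other carrier was tested by subtracting its log2 value from every gene on the same array and fitting all 12653 other genes. Slc25a24 and Slc25a23 differed from it in all 4 comparisons of 2 groups. For GH in WT, Slc25a24 minus Slc25a25 was -2.34 ± 0.194 on the log2 scale (adjusted p = 9.12e-11), and Slc25a23 minus Slc25a25 was -1.88 ± 0.229 (adjusted p = 5.72e-08). For GH in KO the 2 differences were 0.57 ± 0.194 and 0.60 ± 0.229 (adjusted p = 0.0133 and 0.0242).

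Over all 37 other carriers, 35 differed from Slc25a25 for KO against WT without GH, 37 for KO against WT with GH, 37 for GH in WT and 26 for GH in KO. The same test called 93.3%, 99.1%, 99% and 69.8% of all other genes, so that the carriers' shares of 94.6%, 100%, 100% and 70.3% were close to those of the array. The 2 carriers that did not differ without GH were Slc25a27 (-0.35 ± 0.212, adjusted p = 0.122) and Slc25a53 (-0.47 ± 0.489, adjusted p = 0.36). The 11 that did not differ for GH in KO include Slc25a1, Slc25a10, Slc25a22, Slc25a35, Slc25a36 and Slc25a42, which also fell there. Averaging all probe sets of each gene, 3 carriers differed between the genotypes with GH and 3 for GH in KO, and with the actin ratio as a covariate 0 differed by limma for GH in KO (7 at an unadjusted p below 0.05). By size of the log2 fold change Slc25a25 had rank 2, 1, 1 and 8 among the 38 carriers in the 4 comparisons.

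Counted over the family, GH went with more calls than the knockout. For KO against WT without GH 1 of 38 carriers rose, Slc25a25, and 1 fell, Slc25a30, which is 5.26% beside 1.45% of all genes tested (0.774% higher and 0.68% lower). With GH 0 rose and 3 fell, namely Slc25a5, Slc25a22 and Slc25a25, which is 7.89% beside 4.53% of all genes (2.42% higher and 2.11% lower); at an unadjusted p below 0.05 by limma, 0 were higher and 6 lower. GH in WT raised 3 carriers and lowered 7, or 26.3% beside 19.1% of all genes. GH in KO raised 2 and lowered 11, or 34.2% beside 24.3%. Skeletal muscle markers fell in that comparison too, 7 of 11 with 1 rise and a median of -0.38 (Ckm -0.63, Acta1 -0.59), against 0 of 11 falling for GH in WT (3 at an unadjusted p below 0.05, by limma). Their part in the carriers' falls was not tested. Of all genes, 7.33% rose and 11.8% fell for GH in WT, and 8.93% rose and 15.4% fell for GH in KO. The median log2 fold change of the 38 carriers was -0.05, -0.03, -0.07 and -0.18 in these 4 comparisons, against 0, -0.02, -0.06 and -0.06 over all genes. For the interaction 1 carrier was called, as a fall, where 0.624% of all genes were higher and 0.308% lower, and for the mean genotype effect 4 fell (10.5% beside 5.34% of all genes, 2.88% higher and 2.47% lower): Slc25a5, Slc25a22, Slc25a25 and Slc25a30. The comparisons of GH share arrays with those of genotype.

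Arrays centred on their median gave 2 carriers higher and 13 lower for GH in WT and 1 higher and 16 lower for GH in KO, since that scaling moved the median of all genes from -0.06 to -0.24 in both comparisons. Of all genes called, 38.4% were higher for GH in WT and 36.7% for GH in KO as scaled by the authors, and 11.1% and 13.4% after centring. The actin ratio did not overlap between arrays with and without GH, so calls lost with it as a covariate decide nothing about GH. With the actin ratio as a covariate 2 carriers were called by limma for GH in WT and 0 for GH in KO (12 and 7 at an unadjusted p below 0.05). Averaging all probe sets of a gene gave 6 and 8. Counts for GH in WT were 6 without WT 3, without WT_GH 1 or without WT_GH 2. For GH in KO they were 7 without KO_GH 2 and 8 without KO_GH 3. For KO against WT with GH 1 carrier was called without KO_GH 2, and for the mean genotype effect 1 was called without WT 3, WT_GH 1, WT_GH 3, KO_GH 2 or KO_GH 3.

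**Figure D2:**
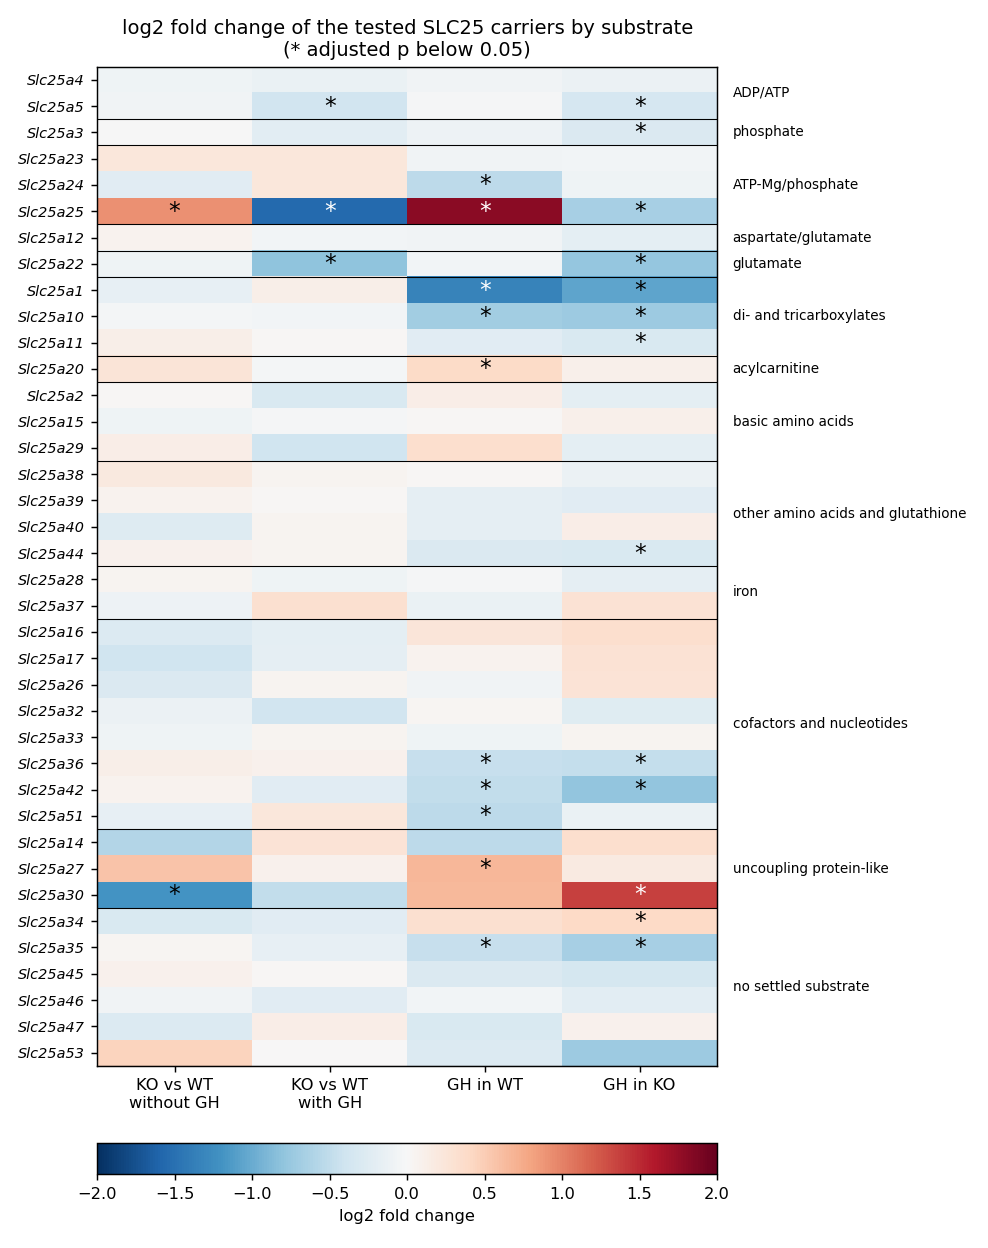
Log2 fold change (colour scale from -2 to 2) of the 38 tested carriers, in rows grouped by substrate, in 4 comparisons of 2 groups, in columns. An asterisk marks an adjusted p below 0.05 by limma. Slc25a25 carries an asterisk in all 4 columns with 2 rises and 2 falls, and most other asterisks stand in the GH columns.

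GH changed 10 carriers in WT and 13 in KO, comparisons that share no arrays. Called in both were 6 carriers, which is 60% of those in WT and 46.2% of those in KO. Over all genes tested, 1502 were called in both, which is 62.2% and 48.8%, so the carriers' shares were near those of the array. Of these, 5 fell in both genotypes: the citrate carrier Slc25a1, the dicarboxylate carrier Slc25a10, the coenzyme A carrier Slc25a42, the pyrimidine nucleotide carrier Slc25a36, and Slc25a35, whose substrate is not settled. The sixth was Slc25a25, with opposite signs.

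**Figure D3:**
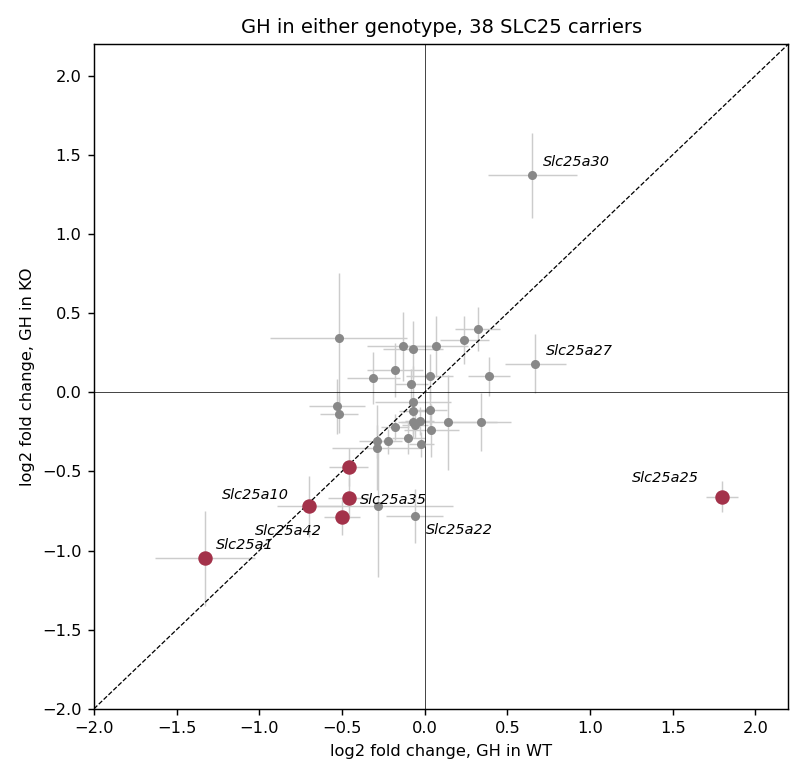
Log2 fold change with GH in WT (horizontal axis) and in KO (vertical axis) of 38 carriers, with standard errors as bars. Larger red points are the 6 carriers called in both, and the dashed line marks equal change. Slc25a25 lies far from the line at 1.80 and -0.66, while Slc25a1, Slc25a10, Slc25a35, Slc25a36 and Slc25a42 lie below 0 on both axes.

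Of the 3 tested carriers of di- and tricarboxylates 2 fell with GH in WT and 3 in KO, where 11.8% and 15.4% of all genes fell. Slc25a1 exports citrate, the precursor of cytosolic acetyl-CoA in fat synthesis. Its signal was 3207, 2515 and 4116 in WT, 5314, 2148 and 2045 in KO, 1182, 1281 and 1332 in WT with GH, and 1303, 1395 and 1421 in KO with GH. Every array with GH lay below every array without. It fell with GH by 1.33 ± 0.301 in log2 units in WT (adjusted p = 0.0108) and by 1.05 ± 0.301 in KO (adjusted p = 0.0273), and the second call ended without any 1 of the 3 KO_GH arrays (0.0654 to 0.0839). With the actin ratio as a covariate Slc25a1 was -0.92 in WT (adjusted p = 0.37) and -0.29 in KO (adjusted p = 0.925).

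Slc25a10 exchanges malate and succinate for phosphate. It was 1487, 879 and 961 in WT, 1232, 896 and 1057 in KO, 527, 661 and 798 in WT with GH, and 755, 584 and 566 in KO with GH, again with no overlap between arrays with and without GH. On the log2 scale it fell by 0.70 ± 0.193 in WT (adjusted p = 0.0196) and by 0.72 ± 0.193 in KO (adjusted p = 0.014). Its other probe set gave -0.54 and -1.84, and the actin covariate -1.12 (adjusted p = 0.0543) and -1.47 (adjusted p = 0.208). In WT the call ended without WT 1, WT_GH 1 or WT_GH 2 (0.0505 to 0.0859), and in KO without KO 1, KO_GH 2 or KO_GH 3 (0.0573 to 0.0594). Slc25a11, the oxoglutarate/malate carrier of the malate-aspartate shuttle, was 14915, 12823 and 12974 in WT, 14460, 13791 and 15669 in KO, 11889, 11000 and 12003 in GH-treated WT, and 11794, 11404 and 12082 in GH-treated KO, again lower on every array with GH. It fell in KO by 0.31 ± 0.08 (adjusted p = 0.0104, and 0.051 without KO_GH 2), and in WT it was -0.22 ± 0.08 (adjusted p = 0.0684, and -0.40 with 0.00217 after median centring). With the actin covariate Slc25a11 was -0.45 in KO (adjusted p = 0.417). By the brightest probe sets, none of the 3 passed limma's threshold for genotype (log2 fold changes -0.17 to 0.12). The other probe set of Slc25a10 gave 0.06 for KO against WT without GH and -1.24 with GH.

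Most adipocyte markers moved in the same direction as these carriers. Of 6 tested markers 4 fell with GH in WT and 4 in KO, beside 11.8% and 15.4% of all genes. Their summed signal was 86800 to 113000 without GH and 69800 to 80200 with it. Lep, in the same list, was 0.47 ± 0.241 in WT and 0.56 ± 0.241 in KO with no call. Of 5 brown adipocyte markers 1 fell with GH in WT and 2 in KO (beside the same shares of all genes), Ppargc1b in both (-1.01 and -0.61). Their sums were 44400 to 65200 without GH and 39000 to 50600 with it. Acly, the cytosolic enzyme that splits the exported citrate, fell by 1.43 ± 0.271 in WT and by 1.11 ± 0.271 in KO (adjusted p = 0.00404 and 0.0125). Macrophage markers fell as well, 5 of 8 in WT and 7 of 8 in KO, beside 11.8% and 15.4% of all genes. Their sums were 11800 to 19100 without GH and 9010 to 9310 with it. The part of these cell types in the carriers' falls was not tested.

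Slc25a22, a mitochondrial glutamate carrier, was low in KO with GH. Its signal was 1315, 2164 and 1791 in WT, 2158, 1498 and 1301 in KO, 1694, 1658 and 1585 in WT with GH, and 910, 916 and 956 in KO with GH. The last group lay below all 9 other arrays, which overlapped with each other. It fell by 0.81 ± 0.171 in KO relative to WT with GH (adjusted p = 0.0111) and with GH in KO by 0.78 ± 0.171 (adjusted p = 0.00424) on the log2 scale. Without GH the genotype difference was -0.09 ± 0.171, and the interaction was -0.72 ± 0.242 (adjusted p = 0.279), so a difference between the genotypes in the GH effect was not shown. The mean genotype effect was called at -0.45 (adjusted p = 0.0428) and lost without WT 2, WT 3, KO 2, KO 3 or any 1 of the 6 arrays with GH (0.0775 to 0.1). The call with GH ended without WT_GH 1, KO_GH 1 or KO_GH 2 (0.0504 to 0.0512), and with the actin ratio as a covariate the values were -0.23 (adjusted p = 0.747) and, for GH in KO, 0.34 (adjusted p = 0.716). The other glutamate carrier, Slc25a18, was too dim to test.

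Slc25a12 (aralar), the calcium-regulated aspartate/glutamate carrier of muscle, had no call from its brightest probe set. It was 16242, 15920 and 14157 in WT, 16458, 16274 and 15664 in KO, 15228, 14133 and 14817 in GH-treated WT, and 14140, 13850 and 14515 in GH-treated KO. It had the smallest spread between replicates of all 38 carriers (pooled SD of log2 values 0.065, against a median of 0.186 for the carriers and 0.177 for all genes). Its log2 fold changes were -0.19 to 0.07. The 2 other probe sets of Slc25a12 went the other way with GH, at 0.92 and 1.29 in WT and 0.82 and 1.39 in KO, and averaging all 3 gave calls of 0.71 (adjusted p = 0.000145) and 0.68 (adjusted p = 0.000182). After median centring the brightest alone gave calls of -0.25 and -0.37 (adjusted p = 0.0344 and 0.00404). The direction of Slc25a12 with GH therefore depends on the probe set. Slc25a13, its counterpart known from liver, was at 10.1 to 67.8 and not tested.

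The ADP/ATP and phosphate carriers, which supply ATP synthase and export its product, showed changes of at most 0.38 on the log2 scale. Slc25a4, the ADP/ATP carrier of striated muscle, was 48457, 53870 and 49988 in WT, 46970, 45970 and 51188 in KO, 54013, 43402 and 48388 in GH-treated WT, and 44988, 42327 and 44939 in GH-treated KO. The KO arrays with GH lay below those without, the other groups compared overlapped, and its log2 fold changes of -0.14 to -0.07 did not pass the threshold. For GH in KO it was called in opposite directions by other scalings, at -0.30 after median centring (adjusted p = 0.0214) and 0.29 with quantile normalization (adjusted p = 0.00337). Its 3 other probe sets gave -0.25 to 0.09 for GH in KO. Slc25a5, the more widely expressed ADP/ATP carrier, was 5391, 5265 and 5667 in WT, 5436, 5429 and 4694 in KO, 5598, 5154 and 5340 in WT with GH, and 4363, 3972 and 4037 in KO with GH. Only the last group stood apart, below all 9 other arrays.

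Slc25a5 fell in KO relative to WT with GH, by 0.38 ± 0.0777 (adjusted p = 0.00871), and with GH in KO, by 0.33 ± 0.0777 (adjusted p = 0.00694), on the log2 scale. Of its 7 other probe sets 6 and 5 had the same sign (-0.37 to 0.06 and -0.49 to 1.19), and with the mean of all 8 the values were -0.24 (adjusted p = 0.117) and -0.03 (adjusted p = 0.85). With the actin covariate neither call held (adjusted p = 0.336 and 0.634). The genotype call also ended after median centring (0.0611), without KO_GH 2 (0.0595) and without KO_GH 3 (0.0537). Its mean genotype effect of -0.22 (adjusted p = 0.0247) ended without WT 3, WT_GH 1, WT_GH 3, KO_GH 2 or KO_GH 3 (0.059 to 0.0821). The probe set used for Slc25a5 is of the _x_at kind, which can also bind related transcripts.

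Slc25a3, the phosphate carrier, was 40055, 44785 and 43275 in WT, 40142, 42446 and 44287 in KO, 47585, 34878 and 37962 in GH-treated WT, and 33572, 34492 and 35395 in GH-treated KO. Its KO arrays with GH lay below those without. The fall of 0.29 ± 0.0994 on the log2 scale (adjusted p = 0.0432) turned to a positive value of 0.01 with quantile normalization and 0.18 with the mean of both probe sets, and was -0.02 with the actin covariate. It also ended without WT 3, WT_GH 3 or any 1 of the KO and KO_GH arrays (0.0545 to 0.131). In WT the groups of Slc25a3 overlapped (-0.10 ± 0.0994). Respiratory chain genes were taken as a gauge of mitochondrial content. Of these, 11 of 20 were lower with GH in KO (beside 15.4% of all genes) and 1 of 20 with GH in WT (beside 11.8%). For genotype without or with GH 0 of 20 were called by limma (0 and 0 at an unadjusted p below 0.05). Their summed signal was 596000 to 671000 in KO and 504000 to 527000 in KO with GH, and the part of mitochondrial content in the falls of Slc25a3, Slc25a5 and Slc25a11 was not tested.

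Among carriers of cofactors and nucleotides 3 of 8 fell with GH in WT and 2 of 8 in KO, where 11.8% and 15.4% of all genes fell. Slc25a42, which takes up coenzyme A, was 1599, 2267 and 2175 in WT, 2200, 2065 and 2011 in KO, 1444, 1384 and 1372 in WT with GH, and 1195, 1192 and 1218 in KO with GH. It fell with GH by 0.50 ± 0.109 in WT and by 0.79 ± 0.109 in KO (log2, adjusted p = 0.00503 and 0.000127). Its other probe set gave -0.01 and 0.77, and the mean of both gave -0.25 and -0.01 with no call. With the actin covariate Slc25a42 was -0.26 (adjusted p = 0.433) and -0.34 (adjusted p = 0.642).

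Slc25a36 carries pyrimidine nucleotides. It was 1611, 1121 and 1259 in WT, 1415, 1588 and 1269 in KO, 982, 984 and 885 in GH-treated WT, and 1035, 990 and 1016 in GH-treated KO, with every GH array below every untreated one. It fell by 0.46 ± 0.12 in WT and by 0.47 ± 0.12 in KO (log2, adjusted p = 0.0149 and 0.00999), with -0.55 to -0.51 by its 2 other probe sets. The WT call ended without WT_GH 3 (0.0641), and both ended with the actin covariate (-0.58 and -0.70, adjusted p = 0.121 and 0.383). Slc25a51, an NAD carrier, was 3499, 3241 and 3385 in WT, 3689, 2664 and 2749 in KO, 2078, 2320 and 2648 in GH-treated WT, and 2584, 2728 and 2870 in GH-treated KO. It fell with GH in WT by 0.52 ± 0.116 (adjusted p = 0.00558). Its 2 other probe sets gave -0.12 and -0.07, the mean of the 3 gave -0.24 (adjusted p = 0.118), and the actin covariate -0.42 (adjusted p = 0.255). In KO the groups of Slc25a51 overlapped (-0.14 ± 0.116).

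**Figure D4:**
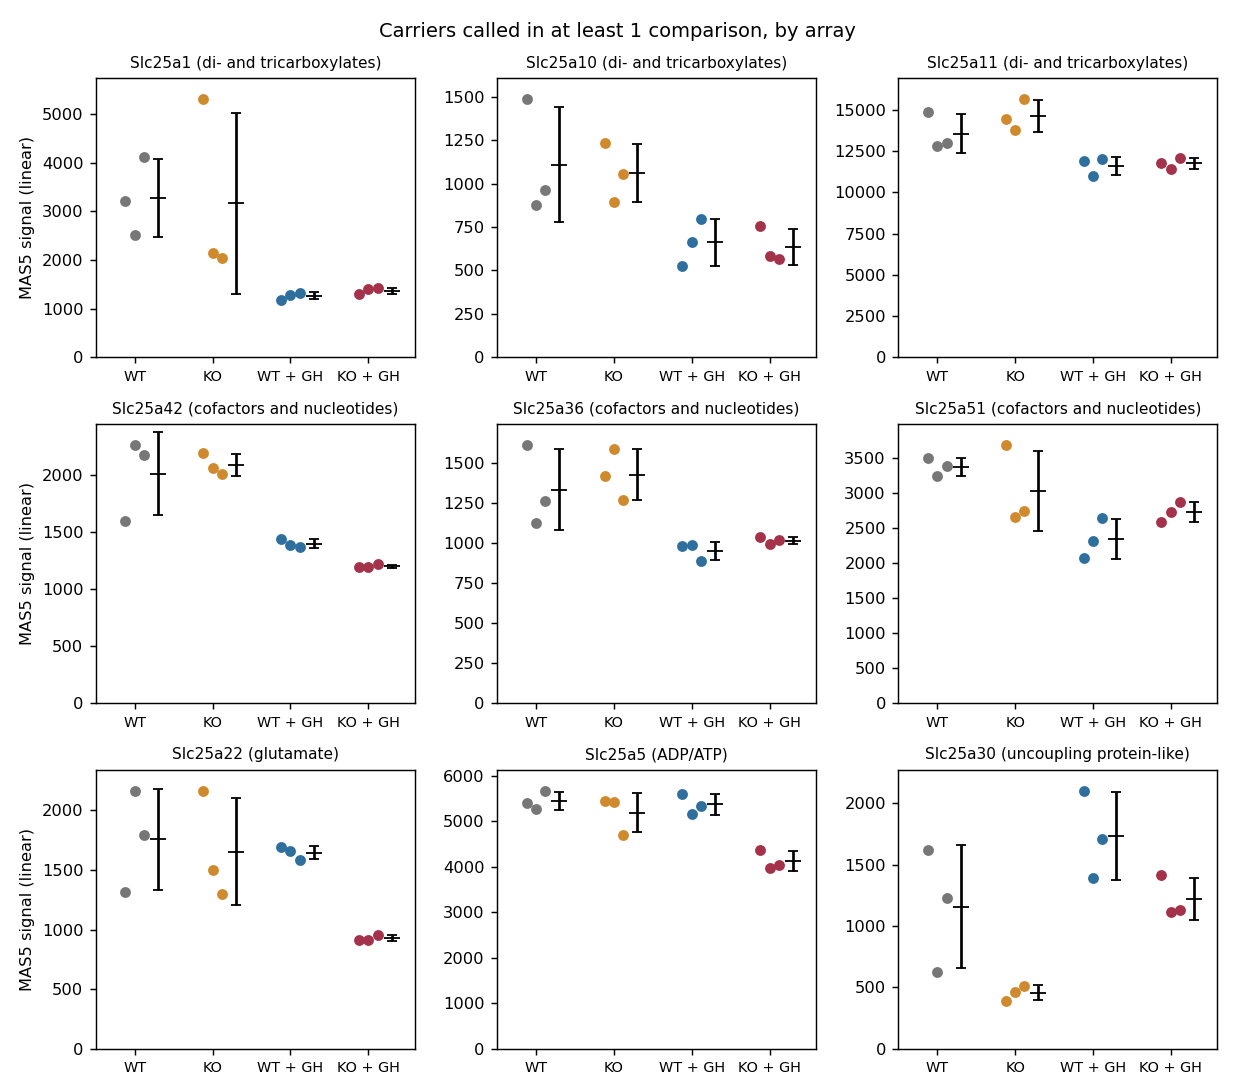
MAS5 signal (linear, vertical axis from 0, a scale of its own per panel) of 9 carriers called in at least 1 comparison, in the 4 groups. Dots are arrays, and bars beside them are mean and SD (n = 3). Slc25a1, Slc25a10, Slc25a11, Slc25a36 and Slc25a42 are lower on all arrays with GH than on all without, Slc25a22 and Slc25a5 are lowest in KO with GH, and Slc25a30 is lowest in KO without GH.

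Slc25a30, a relative of the uncoupling proteins known as the kidney mitochondrial carrier, was low in KO without GH. Its signal was 1622, 625 and 1231 in WT, 392, 462 and 516 in KO, 2104, 1391 and 1709 in WT with GH, and 1415, 1115 and 1135 in KO with GH. The KO arrays lay below the other 9. It rose with GH in KO by 1.37 ± 0.269 on the log2 scale (adjusted p = 0.0029), with 0.07 to 1.23 by its 4 other probe sets, and was 0.65 ± 0.269 with GH in WT (adjusted p = 0.112). With the actin ratio as a covariate the value in KO was 0.13 (adjusted p = 0.953).

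In KO without GH, Slc25a30 fell by 1.20 ± 0.269 (adjusted p = 0.0489), and its 4 other probe sets gave -0.90 to -0.14. That call ended without any 1 array other than WT 2 (0.0538 to 0.161). Its mean genotype effect of -0.85 (adjusted p = 0.0199) ended without WT 3, KO 1, WT_GH 1, WT_GH 3, KO_GH 2 or KO_GH 3 (0.0519 to 0.0592). The interaction was 0.72 ± 0.38 (adjusted p = 0.555) and was called for Slc25a30 when WT 2 was left out. Slc25a27, an uncoupling protein relative known from brain, was 154, 221 and 153 in WT, 209, 292 and 321 in KO, 317, 297 and 259 in GH-treated WT, and 319, 253 and 362 in GH-treated KO. It rose with GH in WT by 0.67 ± 0.186 (adjusted p = 0.0211), but its 3 other probe sets gave -0.13 to 0.24, and the call ended without WT 1, WT 3, WT_GH 1 or WT_GH 2 (0.0604 to 0.077) and with the actin covariate (0.77, adjusted p = 0.193). Slc25a14 had log2 fold changes of -0.58 to 0.34 with standard errors of 0.414 and no call.

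Slc25a20, which brings acylcarnitines in for fatty acid oxidation, was 2494, 3437 and 2701 in WT, 3405, 3887 and 2934 in KO, 4131, 3855 and 3280 in GH-treated WT, and 3471, 3602 and 3815 in GH-treated KO, and the WT groups overlapped. It rose with GH in WT by 0.39 ± 0.125 on the log2 scale (adjusted p = 0.0412), had -0.10 by its other probe set and 0.20 (adjusted p = 0.28) after median centring, and lost its call without WT 1, WT 3, WT_GH 1, WT_GH 2 or any 1 of the KO_GH arrays (0.0545 to 0.145). In KO it was 0.10 ± 0.125 with GH. The basic amino acid carriers Slc25a2, Slc25a15 and Slc25a29 had 0 calls by limma in the 4 comparisons of 2 groups (1 at an unadjusted p below 0.05). The brightest, Slc25a29, was 726, 717 and 473 in WT, 593, 595 and 934 in KO, 729, 832 and 851 in GH-treated WT, and 514, 671 and 637 in GH-treated KO, with -0.40 ± 0.184 for KO against WT with GH (adjusted p = 0.299) and -0.69 to -0.29 by its 4 other probe sets. The branched-chain amino acid carrier Slc25a44 was 576 to 691 without GH and 462 to 567 with it. It fell in KO by 0.31 ± 0.105 (adjusted p = 0.0402), a call that ended without WT_GH 3 or any 1 of the KO and KO_GH arrays (0.0505 to 0.148), and was 0.03 with the actin ratio as a covariate. The 2 other probe sets of Slc25a44 gave 0.13 and -0.02. The glutathione carrier Slc25a39, its relative Slc25a40 and the glycine carrier Slc25a38 had no call, at -0.26 to 0.20. After median centring Slc25a39 was called for GH in WT (-0.36, adjusted p = 0.0135) and in KO (-0.40, adjusted p = 0.00686). Without probe sets of the _x_at and _s_at kinds, of which the brightest is one, it was called for GH in KO (-0.53, adjusted p = 0.00203). The other probe sets of Slc25a39 gave -0.53 to 0.51 for GH in KO, so its direction there depends on the probe set. Slc25a39 was 8658, 7524 and 8254 in WT, 8939, 8409 and 8327 in KO, 7672, 6532 and 7396 in GH-treated WT, and 7813, 6776 and 7454 in GH-treated KO.

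The iron carriers Slc25a28 and Slc25a37 supply heme and iron-sulfur cluster synthesis. Slc25a28 was 1712, 2096 and 2057 in WT, 2113, 1922 and 2066 in KO, 2011, 1919 and 1788 in GH-treated WT, and 1747, 1823 and 1800 in GH-treated KO, and Slc25a37, best known from red cell precursors, was 298 to 635. Neither was called (Slc25a28 was for GH in KO after median centring, at -0.36 with adjusted p = 0.0122), with log2 fold changes of -0.18 to 0.06 and -0.13 to 0.32. Of 4 red cell markers with a probe set, Hba-a1, Slc4a1 and Epb42 were below the filter, and the list summed to 282 to 652. Among 6 tested carriers without a settled substrate, Slc25a35 was 564, 630 and 698 in WT, 714, 661 and 577 in KO, 479, 418 and 457 in GH-treated WT, and 344, 442 and 417 in GH-treated KO, lower on every array with GH. It fell by 0.46 ± 0.125 in WT (adjusted p = 0.0185) and by 0.67 ± 0.125 in KO (adjusted p = 0.0014), the former call ending without WT 3 (0.0771) or WT_GH 2 (0.0736). With the actin covariate Slc25a35 was -0.21 in both (adjusted p = 0.607 and 0.832). Slc25a34 was 606 to 693 in KO and 840 to 909 in KO with GH. It rose by 0.40 ± 0.137 (adjusted p = 0.0447, and 0.252 after median centring; 0.84 with 0.331 with the actin covariate), and the call ended without any 1 array other than WT 1 and WT 2 (0.0521 to 0.132). Slc25a46, known from mitochondrial fission and lipid transfer in the outer membrane, was 3412, 2805 and 2952 in WT, 2956, 2950 and 2820 in KO, 2968, 2975 and 2846 in GH-treated WT, and 2475, 2533 and 2513 in GH-treated KO, with -0.22 ± 0.0785 for KO against WT with GH (adjusted p = 0.144) and -0.14 by its other probe set. It was called for GH in KO after median centring (-0.39, adjusted p = 0.00357) and with array weights (-0.22, adjusted p = 0.00904), but its other probe set gave 0.07 there. The genotype difference of Slc25a46 with GH passed limma's threshold under some settings. Among them were array weights (adjusted p = 0.0175) and only the groups compared (adjusted p = 0.0139).

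In all, 17 of the 38 tested carriers were called in at least 1 of the 4 comparisons of 2 groups and 21 in none. The same share over all genes is not given here, so the count is not a trait of the family. GH in WT alone called 19.1% of all genes, and GH in KO alone 24.3%. A missed threshold does not show equal levels: the standard errors of the log2 fold changes ran from 0.0725 to 0.45, with a median of 0.145. The 6 carriers below the filter, Slc25a13, Slc25a18, Slc25a31, Slc25a41, Slc25a48 and Slc25a54, had signals of 0.946 to 67.8. Of the 28 calls in those 4 comparisons, 20 concerned a carrier with another probe set, and in 11 of the 20 every other probe set had the same sign.

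Transporters outside the family were compared from a list of 17 other mitochondrial carriers and pores, of which 14 were tested. Of these 0 were called by limma for KO against WT without GH (4 at an unadjusted p below 0.05). With GH the uncoupling protein Ucp3 fell by 1.16 ± 0.219 in KO (adjusted p = 0.00714), and Mcu, the pore of the calcium uniporter, rose by 0.58 ± 0.124 (adjusted p = 0.0123). GH lowered (beside 11.8% and 15.4% of all genes) 3 of 14 in WT, the inner membrane protein Letm1, the sideroflexin Sfxn3 and the outer membrane protein Mtch1, and 4 of 14 in KO, among them Sfxn1, Mtch1 and Mtch2. Their log2 fold changes were -0.31, -0.53 and -0.31 in WT and -0.59, -0.45 and -0.32 in KO.

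Of 15 enzymes that work with the carriers 13 were tested, and 0 were called by limma for genotype without or with GH (0 and 3 at an unadjusted p below 0.05). In WT 2 fell with GH (beside 11.8% of all genes), the shuttle enzyme Gpd1 by 0.52 ± 0.0796 (adjusted p = 0.000402) and Acly as given above. In KO 4 fell (beside 15.4% of all genes), among them Acly, the malate dehydrogenase Mdh1 by 0.55 ± 0.0977 (adjusted p = 0.001) and the mitochondrial creatine kinase Ckmt2 by 0.28 ± 0.0913 (adjusted p = 0.035). The median log2 fold change of these enzymes was -0.14 with GH in WT and -0.24 in KO, beside -0.06 over all genes in both.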

How the data were processed

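Per the labels, total RNA was labelled with biotin and hybridised to 12 1-colour Affymetrix arrays, and per the submitters' processing notes MAS5 made the deposited values, which are an intensity on a linear scale. The MAS5 version and its settings are not given in the sources used here. Depth has no meaning for arrays, and 3 arrays per group limit the precision.

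Values were taken as log2(signal + 25). Probe sets with 1 symbol numbered 34945, after 64 controls, 932 with several symbols and 9160 with none were left out. Genes with a mean over 6.253 on the log2 scale, the 40th percentile over probe sets, were tested with limma 3.58.1 (R 4.3.3, statmod 1.5.0): 1 mean per group, 8 residual degrees of freedom, eBayes with trend and robust settings, 2-sided, Benjamini-Hochberg over all genes kept, threshold 0.05. The method was tested on simulated data. Names given outside the family are the Stat5 genes and up to 3 called members of each list. Values on every array are given for the 14 carriers with the smallest p among those called between 2 groups and for the brightest of each substrate class, and others by range. Carriers and lists were chosen with earlier results of these data known. Alternatives covered pseudocount, scaling, normalization, filter, probe set, variance model, array weights, covariate and arrays.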

Additional observations from a re-analysis of the deposited data

Results flagged for a closer look

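The GH effect on Slc25a25 differed between the genotypes. The interaction of genotype and GH was -2.47 on the log2 scale (limma, adjusted p = 9.07e-08, n = 3 arrays per group), from a rise of 1.80 in WT and a fall of 0.66 in KO. Under the 23 alternatives that gave a value the interaction lay between -2.62 and -1.38 with an adjusted p of at most 0.0342. Read alone, the dim probe sets of Slc25a25 gave interactions of -0.16 and -1.53. The fall in KO was less steady: by limma it was -0.03 (adjusted p = 0.93) with the mean of all probe sets. With the actin covariate it was -0.50 (adjusted p = 0.447). Slc25a25 was the 1 carrier of 38 past the threshold for the interaction. Groups of 3 arrays are too small for the test of single arrays that stand apart.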

How the results depend on the processing

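No paired analysis was possible because replicate numbers were given in deposit order and the title of every array has a number of its own. For the family counts and Slc25a25, 325 values kept direction and side of the threshold, 47 were weaker, 3 stronger and 1 reversed. For other called carriers 479 kept both, 162 were weaker and 4 reversed. The pooled median in place of 25 as pseudocount, quantile normalization, no filter, the mean of all probe sets, eBayes without trend and robust, only the groups compared, and leaving out WT 1 and KO 3 together each gave 1 carrier called for KO against WT without GH, against 2. For KO against WT with GH (3 called) there was 1 with the mean of all probe sets, 1 with the actin covariate, 7 with only the groups compared and 5 without WT 1 and KO 3. For GH in WT (10) the mean of all probe sets gave 6 and the actin covariate 2, and for GH in KO (13) they gave 8 and 0 (by limma, with 7 at an unadjusted p below 0.05, and likewise 0 and 7 for carriers that differ from Slc25a25). For the mean genotype effect (4) there were 2 after median centring, after averaging all probe sets and with eBayes without trend and robust, and 1 with the actin covariate. Carriers differing from Slc25a25 with the mean of all probe sets were 3 with GH between the genotypes (37) and 3 for GH in KO (26). That count ran from 19 to 27 for GH in KO when 1 array was left out. Leaving out 1 array gave 1 to 2 carriers without GH, 1 to 4 with GH, 6 to 10 for GH in WT, 7 to 16 for GH in KO, 1 to 2 for the interaction and 1 to 5 for the mean genotype effect. Slc25a25 with the mean of all probe sets was 0.84 and -0.54 for genotype without and with GH, -0.03 for GH in KO and 0.15, a reversal, for the mean genotype effect. With the actin covariate it was -0.50 for GH in KO and -0.27 for the mean genotype effect. Among other carriers GH in KO reversed for Slc25a3 (0.01 with quantile normalization, 0.18 with the mean of all probe sets), Slc25a22 (0.34) and Slc25a44 (0.03), the last pair with the actin covariate. The cause was not tested, and calls lost with the actin covariate cannot tell the ratio from GH. With median centring, differences from Slc25a25 are the same by construction and were not rerun. The interaction and the mean genotype effect could not be fitted with only the groups compared.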
